A study of Mus musculus with 9 samples.

Results

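The TGF-beta and BMP signaling genes examined here are 41 listed genes for ligands, receptors, SMAD proteins, target genes and extracellular regulators, chosen by gene symbol. Of these, 40 were measured, by 103 array features, among 19087 named genes and 30654 rows of the whole table. Smad7 was not analysed here. Ligands of this family bind paired serine/threonine kinase receptors, which phosphorylate SMAD proteins. TGF-beta and activins act mainly through SMAD2 and SMAD3, BMPs through SMAD1, SMAD5 and SMAD9, and SMAD4 is the partner of all of them. In the developing cerebellum, BMPs are known to oppose the proliferation that Sonic hedgehog drives in granule neuron progenitors, and Id genes are classical BMP targets.

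RNA came from cerebella at postnatal day 20 of mice carrying SmoA1, an activated Smoothened that leads to medulloblastoma. The study compared 5 arrays of Pycard wild-type with 4 arrays of Pycard knockout, both on the SmoA1 strain. Pycard encodes ASC, the adaptor protein of inflammasomes. The other dye of every array carried the same pool of wild-type cerebella at day 16, which is neither SmoA1 nor of the same age, so SmoA1, 4 further days and the pool's own makeup cannot be told apart in any ratio. No label names the promoter of SmoA1 or says that arrays are of different animals. The p-values therefore reflect the scatter of these arrays alone, and that scatter may be technical. Every value below is a log2 ratio over that pool, and a ratio gives no expression level, so genes cannot be ordered by abundance and the tissue cannot be checked by marker levels.

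Pycard itself was lower on every array labelled knockout, at -2.83, -2.43, -1.48 and -2.83 for knockout 1 to 4, than on every wild-type array, where its lowest value was 0.72. The SD over all features was 0.656, 0.649, 0.983, 1.12 and 0.835 on wild-type 1 to 5. It was 0.552, 0.560, 0.882 and 0.739 on knockout 1 to 4. Ratios were thus narrower on some arrays than on others, and on each knockout array narrower than on the wild-type array of the same number. The titles end in a letter for 6 arrays (wild-type 1 to 3 and knockout 1 to 3) and in a number for the other 3 (wild-type 4 and 5 and knockout 4). Over all features, exact zeros made up 6.52% to 7.35% on the number-titled arrays and 1.07% to 3.49% on the letter-titled ones. Exact zeros filled 6 of the members' cells. Markers of dividing cells averaged 3.40 ± 0.31 (SD, n = 5 wild-type) and 2.19 ± 0.79 (SD, n = 4 knockout), with knockout 1 lowest at 1.15. Granule progenitor markers averaged 2.26 ± 0.42 (SD, n = 5) and 1.35 ± 0.58 (SD, n = 4).

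Promoter sequence is shown for the lowest and the highest member and for Smad3, a SMAD gene lower in both genotypes, so that the contrast in their base composition can be seen. The stretches are the 120 bases before the RefSeq transcript start in build GRCm38.p6, with CG dinucleotides in capitals, at chr14:33923467-33923586 on the plus strand for Gdf10, chr9:75775245-75775364 on the plus strand for Bmp5 and chr9:63757995-63758114 on the minus strand for Smad3.
Gdf10: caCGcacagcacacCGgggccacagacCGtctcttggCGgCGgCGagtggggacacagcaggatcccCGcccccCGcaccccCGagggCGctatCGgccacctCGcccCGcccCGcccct
Bmp5: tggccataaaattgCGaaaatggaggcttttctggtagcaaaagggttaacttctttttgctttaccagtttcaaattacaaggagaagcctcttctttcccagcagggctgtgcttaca
Smad3: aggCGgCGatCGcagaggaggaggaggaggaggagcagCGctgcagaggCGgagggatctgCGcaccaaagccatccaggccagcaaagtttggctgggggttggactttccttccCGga
Gdf10 has 14 CG dinucleotides in this stretch, Smad3 has 7 and Bmp5 has 1. Over the 300 bases from 250 before to 50 after the start, Bmp5 had the fewest CG dinucleotides, 4, of the 30 members with a promoter in the table. The members' median was 27.5 and the highest was 54, for Acvr2a, while the median of 15306 measured genes was 17.

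The genes also differ in the motif GGCGCC, a GC-rich site bound by SMAD1 and SMAD5, which reads the same on both strands. It was found in the 300-base window of 12 of 30 members (40%), against 19.1% of measured genes and 11.9% of all windows in the table. Id2, near the pool in both genotypes, and Id4, lower than it in wild-type, are shown with the motif in capitals, in 60-base stretches of GRCm38.p6 at chr12:25096283-25096342 on the minus strand for Id2 and chr13:48260941-48261000 on the plus strand for Id4.
Id2: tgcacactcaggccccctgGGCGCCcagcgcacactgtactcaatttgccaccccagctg
Id4: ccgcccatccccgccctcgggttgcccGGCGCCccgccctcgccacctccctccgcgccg
The other members with GGCGCC were Acvr1b, Bmpr1a, Bmpr2, Chrd, Gdf10, Grem1, Smad5, Smad9, Tgfbi and Tgfbr1. GTCTAGAC, the palindromic site of SMAD3 and SMAD4, was in the window of Smad6 alone of the 30, and in 0.281% of measured genes. The E-box CACGTG was in 4 of 30 (13.3%), against 9.66% of measured genes. A motif match describes these letters only, and GGCGCC itself holds a CG dinucleotide.

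**Figure D1:**
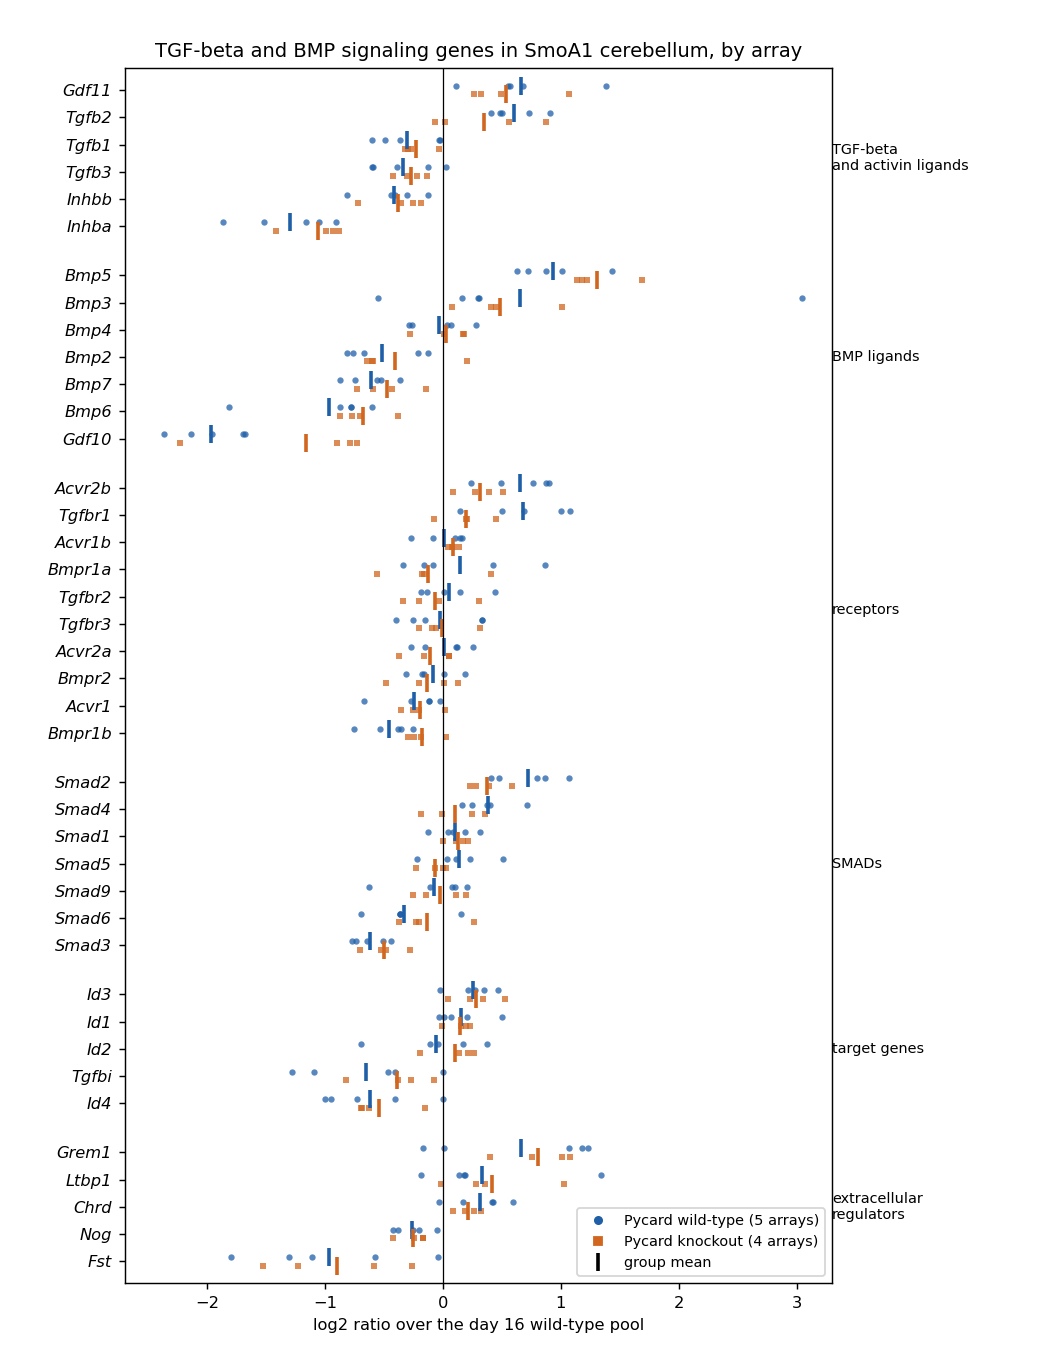
Log2 ratio over the day 16 wild-type pool (horizontal axis) of the 40 genes, grouped by role; circles are the 5 wild-type arrays, squares the 4 knockout arrays, and vertical ticks the group means. Gdf10 and Inhba have the lowest means and Bmp5 the highest, each on the same side of 0 on all 9 arrays, while the receptors lie between -0.75 and 1.08.

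Against the day 16 pool, the wild-type SmoA1 cerebellum had lower ratios of several BMP and activin ligands and higher ratios of Bmp5, the receptor genes Tgfbr1 and Acvr2b, and Smad2 and Smad4. Of the 40 genes, 21 passed (limma adjusted p under 0.05), 13 lower and 8 higher. Lower were the ligand genes Gdf10, Inhba, Bmp6, Bmp7, Bmp2, Inhbb and Tgfb3, the activin inhibitor Fst, the BMP inhibitor Nog, the BMP receptor Bmpr1b, and Smad3, Id4 and Tgfbi. Higher were Bmp5, Gdf11 and Tgfb2, the receptors Tgfbr1 and Acvr2b, the transducers Smad2 and Smad4, and the BMP inhibitor Chrd. Of all rows 25.0% passed, 12.1% lower and 12.9% higher, and of all named genes 29.1%. In bulk tissue, fewer cells of a type and less RNA per cell cannot be told apart. The pool is 1 sample and no array has the dyes exchanged, so its own spread and any dye bias are left out of these tests. Without wild-type 1 the count was 13, as it was without wild-type 2. Calls that held with any 1 array left out were those of Gdf10, Inhba, Bmp5, Bmp6, Bmp7, Bmpr1b, Tgfbr1, Acvr2b, Smad2 and Smad3. Among the others the adjusted p rose to 0.119 for Bmp2, 0.136 for Tgfb3, 0.0880 for Fst and 0.0752 for Gdf11 without wild-type 2, to 0.106 for Tgfbi and 0.0939 for Nog without wild-type 1, and to 0.0563 for Tgfb2 and 0.0658 for Id4 without wild-type 3. Without wild-type 5 it rose to 0.0874 for Smad4, 0.110 for Chrd and 0.0703 for Inhbb. The fit with the replicate number as a block leaves out wild-type 5, whose number no knockout array has. With it the count was 17, all of them among the 21. The calls lost were Smad4 (adjusted p = 0.0535), Nog (0.0571), Chrd (0.0712) and Inhbb (0.0632). Those of Smad4, Chrd and Inhbb were also lost without wild-type 5 and with no block.

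In the knockout SmoA1 cerebellum, 5 of the 40 passed against the pool, 1 higher (Bmp5) and 4 lower (Gdf10, Inhba, Bmp7 and Smad3), where 7.63% of all rows (4.28% higher and 3.35% lower) and 8.51% of named genes did. All 5 also passed in wild-type. The count was 3 without knockout 1, 2 without knockout 2 and 3 without knockout 3. Bmp5 and Inhba held with any 1 array left out, and without knockout 2 the adjusted p rose to 0.0744 for Gdf10, 0.170 for Bmp7 and 0.0787 for Smad3. After quantile normalization it was 9, with 3 higher and 6 lower, and with array weights it was 18, with 6 higher and 12 lower. The weights ran from 0.21 on wild-type 4 to 4.07 on knockout 2. The share of all rows passing in these other settings is not given here, so their counts have no background beside them. With the replicate block 7 passed, Smad3 dropping out (adjusted p = 0.0506) and Bmp2 (0.0444), Id4 (0.0381) and Fst (0.0350) coming in. No test compared the numbers of calls between the genotypes, which share the pool.

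Knockout was not separable from wild-type for any of the 40 genes at this number of arrays. None passed, with limma adjusted p from 0.917 to 1, where 0.0163% of all rows did. At an unadjusted p under 0.05 there were 2, Gdf10 and Tgfbr1, where 5.40% of rows lay under that value. The groups overlapped for all 40, while 1.74% of rows had separated groups. The median difference, knockout minus wild-type, was 0.05 over the 40 and 0.01 over all rows, and after quantile normalization the median of the 40 was -0.01. Scale normalization changed the 6 differences of smallest p. It gave 0.52 for Gdf10, -0.37 for Tgfbr1, -0.21 for Smad2, 0.21 for Bmpr1b, -0.28 for Acvr2b and 0.63 for Bmp5. The 95% interval of the difference lay within 1 log2 unit either way for 38 of the 40, the exceptions being Gdf10 and Bmp3, and within 0.5 for 17. With the replicate block 0 passed (4 at an unadjusted p under 0.05), and with the title style as a block 0 (6 at an unadjusted p under 0.05). The share of all rows under that value with either block is not given here. These counts therefore have no background beside them and cannot be read as particular to these genes.

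**Figure D2:**
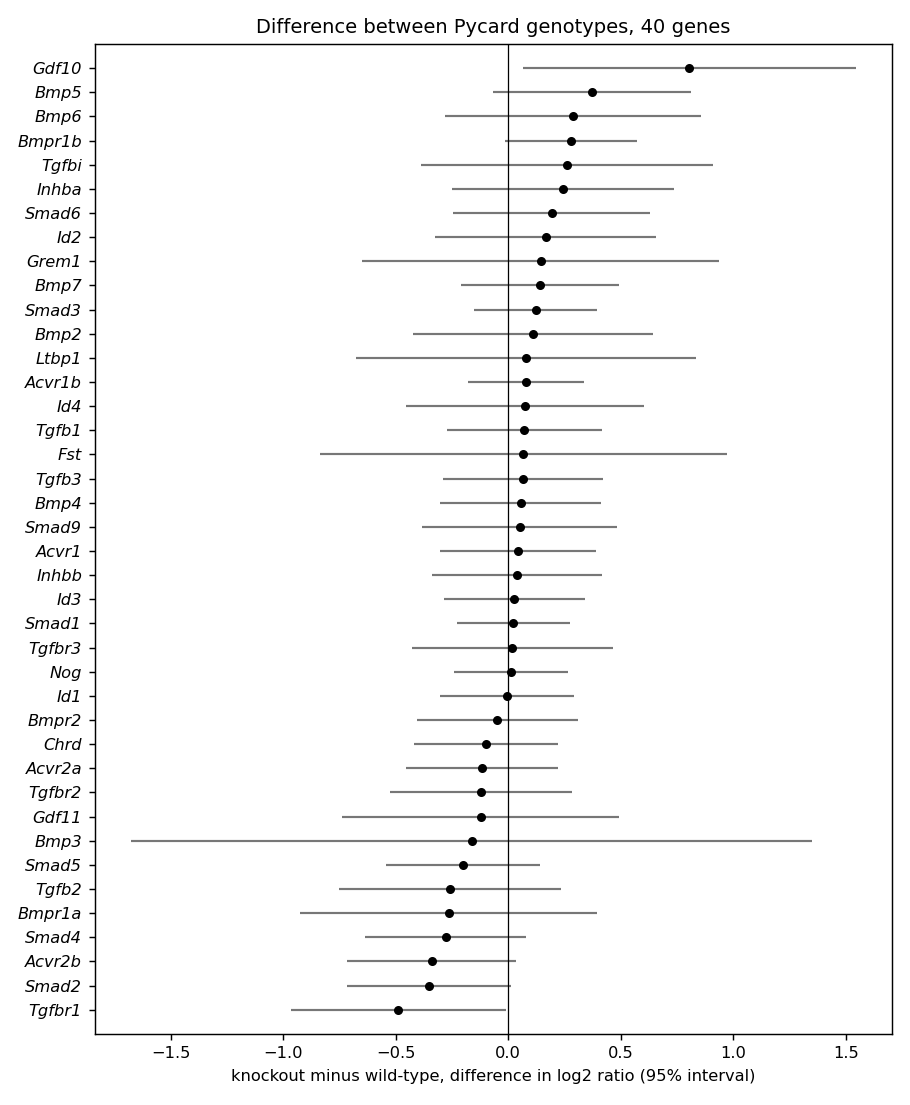
Difference in log2 ratio, knockout minus wild-type (horizontal axis), for each of the 40 genes; points are the limma estimates from 5 and 4 arrays and lines their 95% intervals. Only the unadjusted intervals of Gdf10 (0.06 to 1.55) and Tgfbr1 (-0.97 to -0.01) leave out 0.

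Among the BMP ligands, Gdf10 was lowest. Gdf10, also known as BMP3b and made by Bergmann glia in the cerebellum, stood at -1.68, -1.96, -2.37, -2.14 and -1.70 on wild-type 1 to 5 and at -0.90, -0.79, -2.23 and -0.73 on knockout 1 to 4. All 9 arrays were below the pool, and 3 knockout arrays lay above every wild-type array while knockout 3 lay within the wild-type range. The wild-type mean was -1.97 ± 0.29 (SD, n = 5; limma adjusted p = 0.000539), a 3.91-fold lower ratio, and the knockout mean was -1.16 ± 0.71 (SD, n = 4; limma adjusted p = 0.0255). The difference of 0.81 (SE 0.32) did not pass (limma adjusted p = 0.917), and it was 0.52 after scale normalization, 0.70 among the letter-titled arrays and 1.19 among the number-titled ones.

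Lists of markers were set beside Gdf10. The 4 Purkinje cell markers had a wild-type mean of -0.97 ± 0.12 (SD, n = 5), with values from -1.11 to -0.82, and -0.07, -0.24, -1.06 and -0.31 on knockout 1 to 4, so knockout 3 again lay within the wild-type range. All 4 were higher in knockout. The 7 astrocyte and Bergmann glia markers averaged -0.45 ± 0.22 (SD, n = 5) and -0.33 ± 0.05 (SD, n = 4), with 4 of 7 higher and 3 lower. Each knockout value of that list, between -0.38 and -0.27, lay inside the wild-type range of -0.74 to -0.23. The 5 measured oligodendrocyte markers, all 5 higher in knockout, averaged between -1.62 and -1.06 on the wild-type arrays and between -0.94 and -0.60 on the knockout arrays, with no overlap. The part of these cells in the Gdf10 ratio was not tested.

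Bmp5, a ligand closely related to Bmp6 and Bmp7, was the highest member. Its gene average was 0.72, 1.01, 0.87, 0.63 and 1.44 on wild-type 1 to 5 and 1.22, 1.18, 1.14 and 1.69 on knockout 1 to 4. Every array was above the pool, and the groups overlapped through wild-type 5. The means were 0.93 ± 0.32 (SD, n = 5; limma adjusted p = 0.00140) and 1.31 ± 0.26 (SD, n = 4; limma adjusted p = 0.00380), and the difference of 0.37 (SE 0.19) did not pass (limma adjusted p = 0.919); without knockout 4 it was 0.24, and after quantile normalization 0.78.

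The average hides a disagreement between the Bmp5 features. Both features listed under the RefSeq transcript were well above 0, with wild-type means of 1.63 and 1.91 and knockout means of 1.69 and 2.00, and each passed in both genotypes (limma adjusted p between 0.000964 and 0.00766). The feature listed under the cDNA AK079078 averaged -0.73 in wild-type and 0.23 in knockout and passed in neither, with -3.15 on wild-type 4 and exact zeros on wild-type 3, wild-type 5 and knockout 4. The genotype difference of the RefSeq features was 0.06 and 0.09, and that of the cDNA feature was 0.96. So the difference of 0.37 in the gene average came mostly from the cDNA feature.

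The other BMP ligands went lower or stayed near the pool. Bmp6 was below it on all 9 arrays, from -1.82 on wild-type 4 to -0.385 on knockout 3, with means of -0.97 ± 0.48 (SD, n = 5; limma adjusted p = 0.00382) and -0.68 ± 0.21 (SD, n = 4; limma adjusted p = 0.0627). Bmp7, which has 11 features, stood at -0.87, -0.53, -0.75, -0.56 and -0.36 on wild-type 1 to 5 and at -0.73, -0.59, -0.43 and -0.14 on knockout 1 to 4. All 11 features passed on their own in wild-type and 4 of 11 in knockout. Bmp2, a ligand known to drive granule progenitors out of the cell cycle, averaged -0.52 ± 0.32 (SD, n = 5; limma adjusted p = 0.0410) and -0.41 ± 0.41 (SD, n = 4; limma adjusted p = 0.203), with knockout 4 the only array above 0. Only 1 of its 10 features passed on its own in wild-type and 0 in knockout. Within wild-type, Bmp2 was -0.75 on the letter-titled arrays and -0.17 on the number-titled ones. Bmp4, its nearest relative, was at -0.03 ± 0.24 (SD, n = 5) and 0.02 ± 0.21 (SD, n = 4) and passed in neither. Bmp3, which is known to antagonize other BMPs, passed in neither genotype, and wild-type 3 at 3.04 stood far above its other 8 arrays, which lay between -0.55 and 1.01. Its 2 features disagreed, with an SD of 4.07 on the array where they lay furthest apart.

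**Figure D3:**
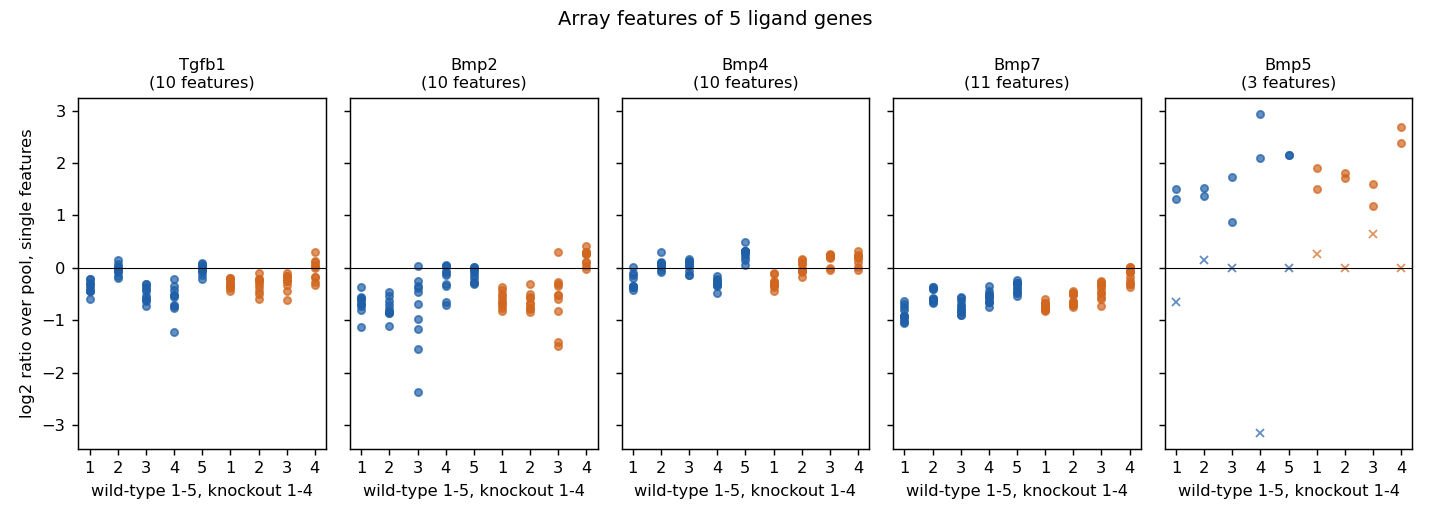
Log2 ratio over the pool of every array feature of Tgfb1, Bmp2, Bmp4, Bmp7 and Bmp5 (vertical axis) on wild-type arrays 1 to 5 and knockout arrays 1 to 4; circles are features listed under a RefSeq transcript and crosses the cDNA feature of Bmp5. Features of Bmp4 and Bmp7 lie close together on each array, whereas those of Bmp2 spread on wild-type 3 and knockout 3 and the Bmp5 cDNA feature lies below the others on every array.

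For genes measured by many features, the spread between spots of the same gene can be seen. The SD over the 10 features of Bmp4 had a median of 0.11 over the arrays, and for the 11 of Bmp7 it was 0.12. For Tgfb1 it was 0.14 and for Bmp2 0.19, with a highest value of 0.72 for Bmp2. By comparison the wild-type arrays differed by an SD of 0.24 for the Bmp4 average and 0.20 for the Bmp7 average, so the arrays varied more than the spots of these genes. The table does not say whether features of the same transcript carry the same probe. Among genes with 2 or 3 features the median SD ranged more widely, such as 0.07 for Id4, 0.47 for Tgfbr1, 0.73 for Inhbb and 1.02 for Bmp5. Gdf10, Inhba, Acvr2b and Bmpr1b have 1 feature each, so for them no spread between spots can be given.

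Activin and TGF-beta ligands differed from each other, with Inhba furthest from the pool. Inhba, the activin beta A subunit, stood at -1.05, -0.91, -1.87, -1.52 and -1.16 on wild-type 1 to 5 and at -0.995, -0.89, -1.42 and -0.94 on knockout 1 to 4. Every array was below the pool, and 3 of the 4 knockout arrays lay within the wild-type range while knockout 2 lay just above it. The means were -1.30 ± 0.39 (SD, n = 5; limma adjusted p = 0.000558), a 2.47-fold lower ratio, and -1.06 ± 0.24 (SD, n = 4; limma adjusted p = 0.00920), and both calls held with any 1 array left out. Inhbb, the beta B subunit, averaged -0.42 in wild-type (limma adjusted p = 0.0253), but its features disagreed, with wild-type means of -0.88 and 0.04. Fst, follistatin, which binds activins, ranged from -1.80 on wild-type 2 to -0.04 on wild-type 3, with means of -0.97 ± 0.68 (SD, n = 5; limma adjusted p = 0.0289) and -0.90 ± 0.58 (SD, n = 4; limma adjusted p = 0.108).

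The TGF-beta isoforms differed in sign. Tgfb2 averaged 0.60 ± 0.21 (SD, n = 5; limma adjusted p = 0.0168) in wild-type and 0.34 ± 0.45 (SD, n = 4; limma adjusted p = 0.247) in knockout, or 0.17 without knockout 3. Tgfb3 averaged -0.34 ± 0.28 (SD, n = 5; limma adjusted p = 0.0456), and its call was lost in most other settings. Tgfb1, the isoform microglia depend on, averaged -0.30 ± 0.26 (SD, n = 5; limma adjusted p = 0.0596) and -0.23 ± 0.13 (SD, n = 4) and did not pass, though all 9 arrays were below 0. On their own, 3 of its 10 features passed in wild-type and 0 in knockout. Gdf11, a relative of myostatin, averaged 0.66 ± 0.46 (SD, n = 5; limma adjusted p = 0.0291) and was above 0 on all 9 arrays, the highest being 1.39 on wild-type 3.

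Of 10 receptor genes, 3 passed in wild-type and 0 in knockout (limma; 1 in knockout at an unadjusted p under 0.05, Acvr2b, where 23.1% of all rows lay under it). Over all named genes 29.1% passed in wild-type and 8.51% in knockout, so the receptors' counts were near the background. Tgfbr1, the TGF-beta type I receptor, was at 0.14, 0.50, 0.69, 1.0 and 1.08 on wild-type 1 to 5 and at -0.08, 0.20, 0.45 and 0.19 on knockout 1 to 4. Wild-type 2 to 5 lay above all knockout arrays and wild-type 1 lay among them. The wild-type mean was 0.68 ± 0.38 (SD, n = 5; limma adjusted p = 0.00862), the knockout mean 0.19 ± 0.22 (SD, n = 4), and the difference -0.49 (SE 0.21; limma adjusted p = 0.917). It was -0.25 among the letter-titled arrays and -0.85 among the number-titled ones. The features had wild-type means of 1.01 and 0.35 and differences between genotypes of -0.48 and -0.50. Of these 2 features, 1 passed on its own in wild-type and 0 in knockout.

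Acvr2b, a type II activin receptor, was at 0.87, 0.49, 0.76, 0.24 and 0.90 on wild-type 1 to 5 and at 0.09, 0.39, 0.51 and 0.27 on knockout 1 to 4. All arrays were above 0, and 3 wild-type arrays lay above every knockout array. Its means were 0.65 ± 0.28 (SD, n = 5; limma adjusted p = 0.00356) and 0.31 ± 0.18 (SD, n = 4), a difference of -0.34 (SE 0.16; limma adjusted p = 0.917). Bmpr1b, a type I BMP receptor, moved the other way, at -0.53, -0.26, -0.75, -0.38 and -0.36 on wild-type 1 to 5 and at -0.18, -0.25, -0.30 and 0.03 on knockout 1 to 4. Only wild-type 2 fell within the knockout range. Its means were -0.46 ± 0.19 (SD, n = 5; limma adjusted p = 0.00589) and -0.18 ± 0.14 (SD, n = 4), a difference of 0.28 (SE 0.13; limma adjusted p = 0.917).

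The remaining receptors lay near the pool. Tgfbr2, Tgfbr3, Bmpr1a, Bmpr2, Acvr1, Acvr1b and Acvr2a had wild-type means between -0.24 (Acvr1) and 0.14 (Bmpr1a) and knockout means between -0.20 (Acvr1) and 0.09 (Acvr1b). None of the 7 passed in either genotype. Acvr1, a type I receptor for BMPs, was the only receptor among them below 0 on all 5 wild-type arrays.

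**Figure D4:**
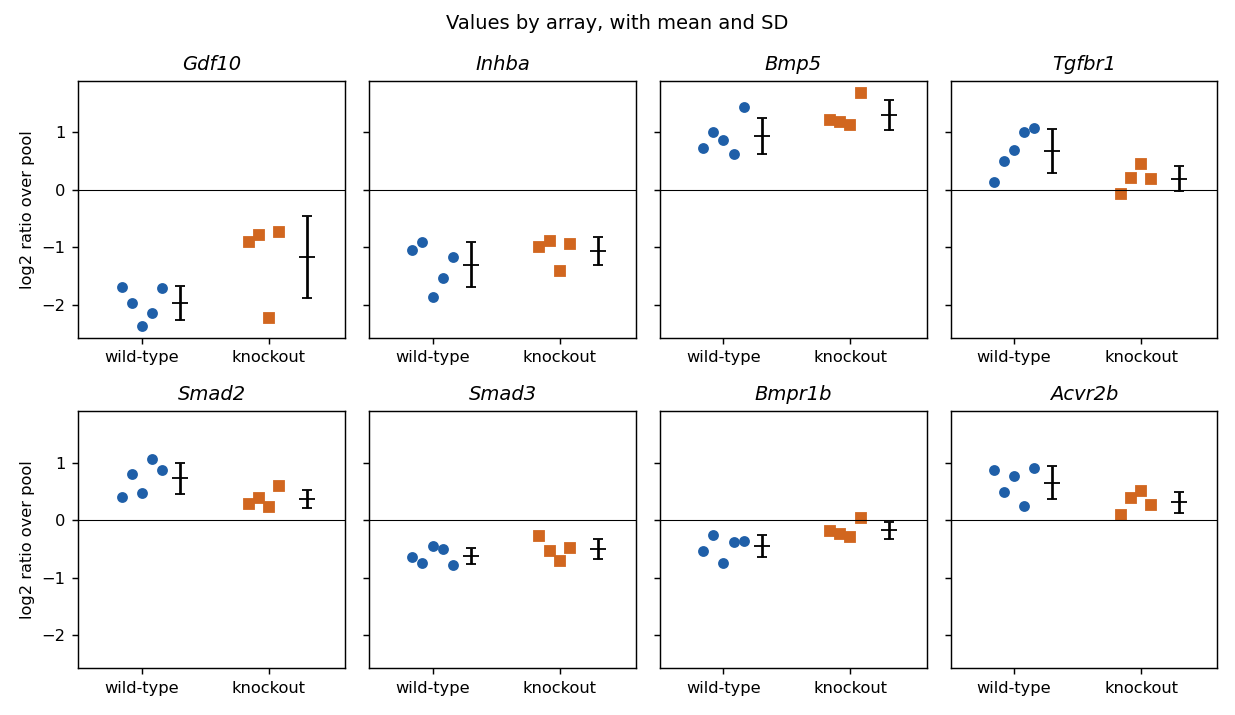
Log2 ratio over the pool (vertical axis) of 8 genes; each point is an array, and the black bar beside each group gives its mean and SD (n = 5 wild-type, n = 4 knockout). Gdf10 on knockout 3 lies at -2.23, among the wild-type arrays, and Smad2 lies above 0 and Smad3 below 0 on all 9 arrays.

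The SMADs that carry TGF-beta and activin signals moved in opposite directions. Smad2 was at 0.41, 0.80, 0.48, 1.07 and 0.87 on wild-type 1 to 5 and at 0.28, 0.39, 0.23 and 0.59 on knockout 1 to 4. Smad3 was at -0.65, -0.74, -0.45, -0.51 and -0.77 on wild-type 1 to 5 and at -0.28, -0.53, -0.71 and -0.49 on knockout 1 to 4. Smad2 was thus above and Smad3 below the pool on all 9 arrays. In wild-type Smad2 averaged 0.72 ± 0.28 (SD, n = 5; limma adjusted p = 0.00186) and Smad3 -0.62 ± 0.14 (SD, n = 5; limma adjusted p = 0.00102). In knockout the means were 0.37 ± 0.16 (SD, n = 4; limma adjusted p = 0.101) for Smad2 and -0.50 ± 0.17 (SD, n = 4; limma adjusted p = 0.0151) for Smad3. All 3 Smad3 features passed in wild-type, with means between -0.65 and -0.59, while Smad2 has 1 feature. The genotype difference of Smad2 was -0.35 (SE 0.16; limma adjusted p = 0.917).

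Smad4, the common partner, averaged 0.38 ± 0.21 (SD, n = 5; limma adjusted p = 0.0299) in wild-type, against 0.10 ± 0.25 (SD, n = 4) in knockout, or 0.02 without knockout 4. Of its 2 features, 1 passed in wild-type and 1 in knockout. The BMP-responsive Smad1, Smad5 and Smad9 and the inhibitory Smad6 had wild-type means of 0.10, 0.13, -0.07 and -0.33 and, as gene averages, passed in neither genotype. Single features of Smad1 and Smad5 disagreed, at 0.37 and -0.17 for Smad1 and from -0.38 to 0.68 for Smad5 in wild-type. Of the 2 Smad1 features, 1 passed in wild-type and 1 in knockout. Of the 3 Smad5 features, 1 passed in wild-type and 0 in knockout. Granule progenitor markers were lower in knockout than in wild-type for 5 of 5 genes, and dividing cell markers for 5 of 5, in the same direction as Tgfbr1, Acvr2b, Smad2 and Smad4; their part in those differences, none of which passed, was not tested.

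Among the targets, Id4 stood apart from the other Id genes, which encode dominant-negative helix-loop-helix proteins. Id1, Id2 and Id3 had wild-type means of 0.15, -0.06 and 0.26 and knockout means of 0.14, 0.10 and 0.28, and passed in neither. The 3 Id2 features ranged from -0.41 to 0.25 in wild-type, where 1 passed on its own. Id4, expressed in astrocyte-lineage cells, was at -0.95, -0.73, -0.999, 0.00 and -0.40 on wild-type 1 to 5 and at -0.63, -0.70, -0.69 and -0.15 on knockout 1 to 4. Its means were -0.62 ± 0.42 (SD, n = 5; limma adjusted p = 0.0204) and -0.54 ± 0.26 (SD, n = 4; limma adjusted p = 0.0990). The 3 number-titled arrays were the highest, and within wild-type the letter-titled arrays averaged -0.89 and the number-titled -0.20. No label says whether the title style marks a batch. Both Id4 features passed in wild-type. Tgfbi, a matrix protein induced by TGF-beta, averaged -0.65 ± 0.53 (SD, n = 5; limma adjusted p = 0.0371) and -0.39 ± 0.32 (SD, n = 4), with a lowest value of -1.28 on wild-type 3.

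The extracellular regulators showed no common direction. Nog, noggin, was below 0 on all 9 arrays, with means of -0.26 ± 0.15 (SD, n = 5; limma adjusted p = 0.0320) and -0.25 ± 0.12 (SD, n = 4). Chrd, chordin, averaged 0.31 ± 0.25 (SD, n = 5; limma adjusted p = 0.0408) and 0.21 ± 0.10 (SD, n = 4). Grem1, gremlin, ranged from -0.17 on wild-type 3 to 1.23 on wild-type 5 and passed in neither genotype. Ltbp1, which holds latent TGF-beta in the matrix, averaged 0.33 and 0.41 without passing, with wild-type 3 at 1.34 and knockout 3 at 1.02 as its highest arrays.

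A list of 79 other genes of these pathways gave 71 measured ones. In wild-type 27 of the 71 passed against the pool, 8 higher and 19 lower, and in knockout 7 passed, 3 higher and 4 lower. Of all named genes 29.1% and 8.51% passed, so the knockout count was near the background. For knockout minus wild-type 0 passed (limma; 6 at an unadjusted p under 0.05, where 5.40% of all rows lay under it). Tgif2, a homeodomain corepressor of SMAD proteins, had the highest mean, 2.49 ± 0.31 (SD, n = 5; limma adjusted p = 0.000559) in wild-type and 1.36 ± 0.95 (SD, n = 4; limma adjusted p = 0.0347) in knockout, where knockout 1 was lowest at 0.38. Cdkn2b, a cyclin-dependent kinase inhibitor gene that TGF-beta induces, averaged 0.67 and 0.53 and passed in both genotypes.

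Passing as lower in both genotypes were Bmper, a secreted BMP modulator, with means of -0.83 and -0.60, and Nrros, which anchors latent TGF-beta on microglia, with -0.72 and -0.72. The BMP-binding Chrdl1, with -0.66 and -0.53, and the type I receptor Acvr1c, with -0.76 and -0.54, did so too. In 3 of the 71 the genotypes did not overlap, where 1.74% of all rows had separated groups. These were the SMAD corepressor gene Skil (difference -0.30, SE 0.12), the repressor gene Zeb1 (-0.40, SE 0.12) and the Nodal co-receptor gene Tdgf1 (0.46, SE 0.13), each with a limma adjusted p = 0.917.

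Nrros was at the same mean in both genotypes while the 5 measured microglia markers had means of 0.70 ± 0.22 (SD, n = 5 wild-type) and 0.21 ± 0.37 (SD, n = 4 knockout), all 5 lower in knockout. The markers disagreed among themselves. In wild-type Aif1 (1.43) and Fcrls (1.46) passed as higher, whereas Tmem119 passed as lower (-0.28; limma adjusted p = 0.0331). Tmem119 was nearly the same in knockout, at -0.32. The part of microglia in the ratios of Nrros and Tgfb1 was not tested.

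Choroid plexus markers varied more between arrays than the other 10 marker lists, and some pathway genes varied with them. The 5 markers measured (Ttr, Kl, Folr1, Clic6 and Aqp1) averaged -0.67, 0.57, -2.17, -1.89 and -0.10 on wild-type 1 to 5 and -2.40, -2.26, -0.11 and 0.18 on knockout 1 to 4. Low and high arrays occurred in both genotypes. Sostdc1, a secreted inhibitor of BMP and Wnt signals, was at -1.59, 0.64, -5.53, -5.27 and -0.39 on wild-type 1 to 5 and at -4.43, -4.24, -0.51 and -0.20 on knockout 1 to 4. Its 4 lowest arrays were the 4 lowest of the marker list. Msx1, a homeobox gene induced by BMPs, was lowest on knockout 1 (-1.08), wild-type 3 (-1.02) and knockout 2 (-0.98), followed by wild-type 1 (-0.70), and wild-type 4 (-0.62) came next. The choice of Sostdc1 and Msx1 was made with their values known, and neither passed against the pool in either genotype. The part of choroid plexus in these ratios was not tested.

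**Figure D5:**
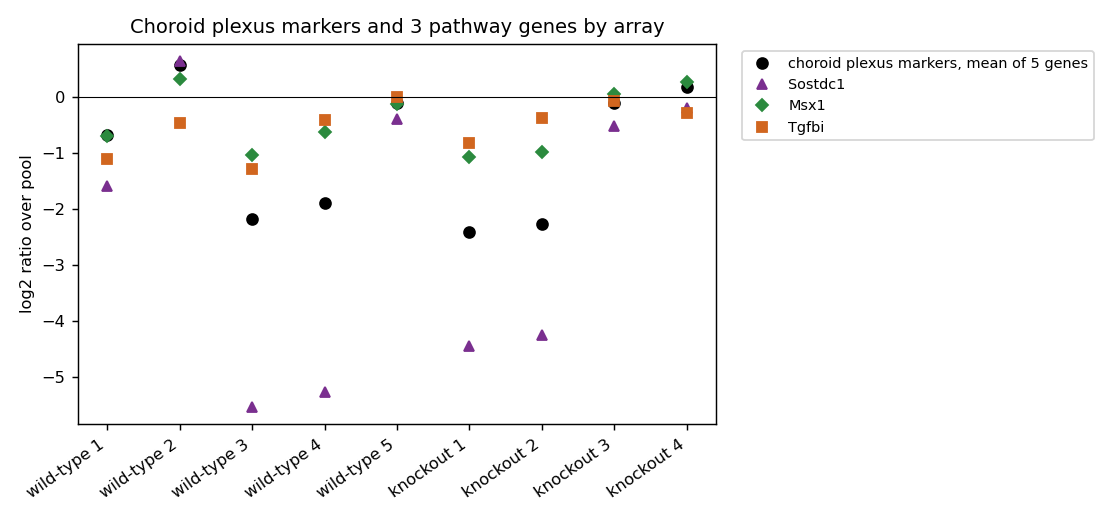
Log2 ratio over the pool (vertical axis) on each array for the mean of the 5 choroid plexus markers and for Sostdc1, Msx1 and Tgfbi. Sostdc1 lies between -5.53 and -4.24 on wild-type 3 and 4 and knockout 1 and 2, where the marker mean is also lowest.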

How the data were processed

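The 9 arrays of 2 colours were deposited as processed log ratios, 1 per feature and array, from the authors' use of Agilent Feature Extraction per the submitters' processing notes; not given in the sources used here are its version, background correction and dye normalization. The deposited values were read as log2 of Cy5 (sample) over Cy3 (pool): the dyes are per the labels, and on each array some values exceed 4.82, which a log10 ratio of 16-bit scanner readings cannot. No intensities come with them, so dim or saturated spots were not separated, and the number of arrays limits the precision.

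Features with 1 gene symbol in the platform annotation were averaged per gene and all others kept (30654 rows from 45220 features). limma 3.58.1 (R 4.3.3) was fitted to all rows of 9 arrays without covariates, two-sided, with Benjamini-Hochberg adjustment over all rows and intervals at 95%; group means were tested against 0. Its code was checked on simulated data. Members given on every array include those at or past a mean of 1 with adjusted p under 0.05. Also included are the 6 smallest p between genotypes, and Smad3, Bmp7 and Id4, added after their values were seen. Of the other pathway genes, Sostdc1 was given on every array, chosen with its values known. The members, lists and rules were chosen with earlier results of these data known.

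Replicate numbers occur in both genotypes in the labels. Residuals about the group means, compared between arrays that share a number, had correlations of 0.244, 0.247, 0.446 and 0.304. The numbers were therefore used as an alternative block, which is printed where it changes a call. That fit leaves out wild-type 5, whose number no knockout array has. No label states a pairing, and correlations between arrays of different number are not given here, so these values do not establish one. Knockout 2 correlated most with wild-type 1. Promoters come from RefSeq (GRCm38.p6).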

Additional observations from a re-analysis of the deposited data

Results flagged for a closer look

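Of 80 groups (40 genes in each genotype), 7 held an array far from the others of its group, by the gap to its neighbour over the group's range, where chance flags about 1 in 20. Bmp3 on wild-type 3 (3.04, next 0.30) and Ltbp1 on wild-type 3 (1.34, next 0.19) were the highest of their group. Each has 2 features, whose SD reached 4.07 for Bmp3 and 1.68 for Ltbp1 on the array where they lay furthest apart. Bmp6 on wild-type 4 (-1.82, next -0.87) and Gdf10 on knockout 3 (-2.23, next -0.90) were the lowest. On knockout 4, Bmp2 (0.21, next -0.60), Bmp5 (1.69, next 1.22) and Id4 (-0.15, next -0.63) were the highest. Knockout 4 is the 1 knockout array with a number as title.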

How the results depend on the processing

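Knockout minus wild-type gave 0 passing members in all 22 other settings tried, the replicate block included. Against the pool in wild-type, the 21 calls became 13 to 18 with 1 array left out, 17 with the replicate block and 3 with the filter on SD, which kept 10 of the 40 members. In knockout, the 5 calls became 2 to 7 with 1 array left out, 9 after quantile normalization, 8 after scale normalization, 18 with array weights, 9 with single features and 1 with the filter on SD. The 7 calls in knockout among the other pathway genes became 15 after quantile normalization. For these counts the cause was not tested, beyond the fewer genes or arrays that some settings leave. The share of all rows passing in each of these settings is not given here, so the counts cannot be read as particular to these genes. Named genes alone, chosen after seeing the data, gave 22 and 6. The means that passed against the pool and the 6 genotype differences of smallest p were followed as gene averages through the settings run for them. No sign changed there, 456 values stayed on their side of the threshold and 89 lost it. Single features were left out of that check, and some had the other sign. In wild-type the lowest Bmp5 feature averaged -0.73 and the highest Inhbb feature 0.04. The 456 include the 6 differences, which stayed by not passing in any setting, so that number overstates how many calls were kept. All 89 values lost were calls against the pool. Other genotype differences, none of which passed, did change sign, such as Bmp2 (0.11, and -0.10 without knockout 4), Fst (0.07, and -0.15 without knockout 3), Gdf11 (-0.12, and 0.06 without wild-type 3), Id4 (0.07, and -0.06 without knockout 4), and, after quantile normalization, Inhba (0.24 to -0.07) and Bmp7 (0.14 to -0.04). Those lost most often were Chrd (13), Tgfb3 (11), Nog (9) and Tgfbi (9). Every ratio rests on 1 pool with no dye swap.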
